A study of Mus musculus with 29 samples.

Results

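The caudate-putamen, the striatal target of midbrain dopamine axons, was compared between FVB/N mice exposed to MPTP and naive FVB/N mice. The comparison rests on the 4 arrays titled CPU FVB/N MPTP 1 and 2 and CPU FVB/N control 1 and 2, of 29 arrays in the series. FVB/N is the inbred parent strain and carries no transgene. MPTP was injected in 4 doses of 20 mg/kg at intervals of 2 h, 80 mg/kg in all, and the tissue was taken 4 days later. The TgS line, which expresses the human AChE-S variant of acetylcholinesterase, and the TgR line, which expresses human AChE-R, were treated in the same way. TgS has 2 MPTP and 2 naive caudate-putamen arrays, and TgR has 1 MPTP and 2 naive arrays. The prefrontal cortex of FVB/N has 2 MPTP and 4 naive arrays. Each strain had 6 mice given MPTP and 6 given saline, 36 mice in all. The labels call the unexposed arrays naive. It is not stated whether saline was given to those mice, nor the number of animals behind each array, their age or their sex.

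MPTP is converted in the brain to a metabolite that enters dopamine neurons through the dopamine transporter and poisons mitochondrial complex I. In mice it damages the dopamine terminals of the striatum, and glial cells respond to that damage. The cell bodies of these neurons lie in the midbrain, so most of their messenger RNA is outside the caudate-putamen. Glucocorticoid hormone acts on brain cells through a receptor that binds DNA and switches on genes such as Fkbp5 and Tsc22d3. Heat shock proteins are chaperones that bind misfolded proteins, and the unfolded protein response raises the chaperones of the endoplasmic reticulum.

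One label conflicts with the others. The free-text description of naive array 2 calls its mice MPTP-exposed, while its title, source name and treatment entry all say naive. It was kept as naive, and counts without it are given beside the results. Lcn2, the transcript with the largest rise, read 4.79 on this array and 4.71 on naive array 1, against 9.28 and 9.23 on the MPTP arrays. Array medians of the 4 arrays lay between 7.71 and 7.73 on the log2 scale. Actin control probe sets, which bear on RNA integrity, read lower at the 5′ than at the 3′ end, and the 5′ minus 3′ difference was -1.18 and -1.22 on the MPTP arrays and -1.41 and -1.26 on the naive arrays. In TgS and TgR caudate-putamen it lay between -0.67 and -0.99. The median absolute difference over transcripts was 0.08 between the MPTP arrays, 0.09 between the naive arrays and 0.09 to 0.11 across the groups.

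Striatal marker levels are given first. They do not measure how much adjoining tissue entered a dissection, since that tissue brings transcripts of its own. Penk, which encodes enkephalin and marks striatopallidal neurons, read 13.18 and 13.02 on the MPTP arrays and 13.07 and 13.26 on the naive arrays. Ppp1r1b, which encodes DARPP-32, read 12.32 and 12.30 with MPTP and 12.26 and 12.35 without. Both are therefore high on all 4 arrays, with overlapping groups. The mean level over the 15 measured striatal projection neuron markers was 10.87 and 10.80 with MPTP, against 10.82 and 11.02 without. Of the 15, 11 had a negative and 4 a positive difference, with a median of -0.10. The MPTP arrays lay below the naive arrays for 5 and above them for 1, where 40% of all transcripts do either. In a bulk sample of this kind, fewer cells of a type and less RNA per cell cannot be told apart.

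A transcript here is one probe set, given as a log2 signal, and "called" means an adjusted p under 0.05 in limma over 22626 transcripts. The value after ± is the standard error of a log2 difference, MPTP minus naive, from the spread pooled over all 29 arrays. In MPTP mice 45 transcripts were higher and 15 were lower than in naive mice, 60 in all or 0.265% of those tested. Higher calls were 0.199% and lower calls 0.0663% of those tested. The MPTP and naive arrays did not overlap for any of the 60, but 40% of all transcripts share that property, so it adds little with 2 arrays a group. At an unadjusted p under 0.05 there were 1366 transcripts. The median difference over all transcripts was 0.01. The called rises stand for 39 genes and the called falls for 12, with 4 further transcripts, 2 in each direction, that carry no single gene symbol. Most changes were moderate: 13 rises reached 1 on the log2 scale, 4 falls went beyond it and a further fall, without a gene symbol, was of 1.00. Without naive array 2, 17 transcripts were higher (0.0751%) and 24 lower (0.106%), and 25 of the 60 kept their call. Without MPTP array 2 only Lcn2 was called (0.00442%), and without naive array 1, 11 transcripts were called (0.0486%), all higher. Without MPTP array 1, 16 were higher (0.0707%) and 24 lower (0.106%). All 60 kept their direction in each of these fits. The count also moved with the prefrontal arrays, which enter through the pooled spread: 5 transcripts (0.0221%) were called without the term that sets naive prefrontal replicates 3 and 4 apart, and 153 (0.676%) when naive prefrontal replicates 1 and 2 were left out. Where nothing says that arrays came from separate mice, the p-values measure the spread between arrays, which may be technical.

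**Figure D1:**
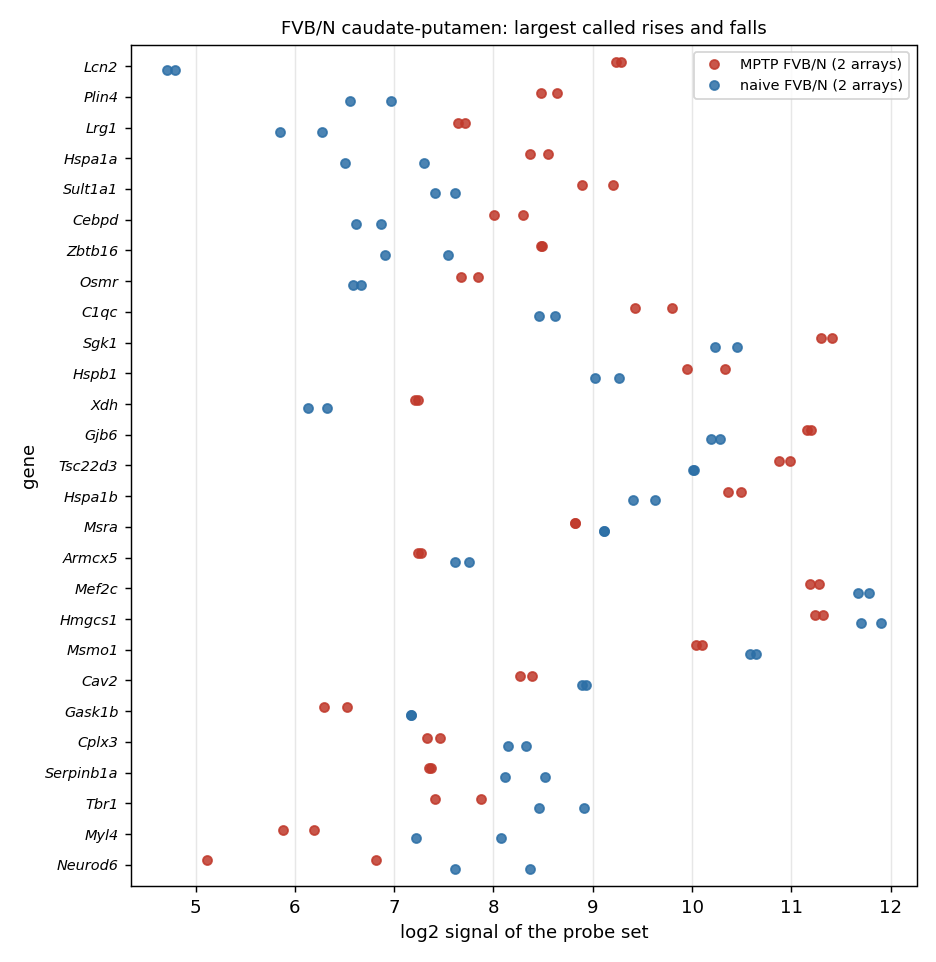
Log2 signal (x axis) of the 15 largest called rises and the 12 called falls (one gene per row) in FVB/N caudate-putamen, each point 1 array; red, MPTP, blue, naive. Lcn2 shows the widest separation, at 9.28 and 9.23 with MPTP and 4.71 and 4.79 in naive mice, and the MPTP and naive points of every row are apart.

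Lcn2 had the largest rise of the called transcripts. It encodes lipocalin-2, a secreted protein that binds bacterial iron carriers and is made by reactive astrocytes. It rose by 4.50 ± 0.34 on the log2 scale, or 22.7-fold (adjusted p = 6.91e-07). It was called in all 13 alternative fits of the FVB/N response. Lrg1, a secreted glycoprotein of the acute phase, read 7.64 and 7.71 with MPTP and 5.85 and 6.27 in naive mice, a rise of 1.62 ± 0.20 (3.06-fold, adjusted p = 0.00121). Cebpd, a transcription factor of the acute-phase response, read 8.30 and 8.01 against 6.62 and 6.87 and rose by 1.41 ± 0.28 (adjusted p = 0.0305). Its second probe set gave 0.05. Osmr, the receptor subunit for oncostatin M, read 7.67 and 7.84 against 6.59 and 6.67 and rose by 1.12 ± 0.18 (adjusted p = 0.00593), with 0.50 at its second probe set. Counts over a list take 1 probe set for each gene, the one with the highest mean signal. They are to be read beside all 22626 transcripts, of which 0.199% were called higher and 0.0663% lower. An unadjusted p under 0.05 was found for 1366 of these. Of the 25 measured acute-phase and cytokine response genes these 4 were called, all higher, and the list's median was 0.29 beside 0.01 over all transcripts. Cd14, a co-receptor for bacterial lipopolysaccharide, averaged a difference of 1.05 ± 0.22 and missed the threshold (adjusted p = 0.0522). With naive array 2 left out, 3 of the 25 were called.

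Of 17 measured genes induced by glucocorticoid, 7 were called higher and none lower, and the MPTP arrays lay above the naive arrays for 15 of the 17. Across all transcripts 21.6% do so, and 0.199% were called higher. The list's median difference was 0.72. Its mean level was 10.14 and 10.16 on the MPTP arrays, against 9.44 and 9.36 on the naive arrays. Plin4, a coat protein of lipid droplets, read 8.64 and 8.48 with MPTP and 6.97 and 6.56 in naive mice, a rise of 1.80 ± 0.33 (3.47-fold, adjusted p = 0.0202). Sult1a1, a sulfotransferase, rose by 1.54 ± 0.28 (9.20 and 8.89 against 7.41 and 7.61, adjusted p = 0.0202). Sgk1, a serine/threonine kinase that regulates ion channels, was high on all 4 arrays and rose by 1.01 ± 0.14 (11.30 and 11.41 against 10.23 and 10.45, adjusted p = 0.00292). Tsc22d3, which encodes the anti-inflammatory protein GILZ, rose by 0.92 ± 0.19 (adjusted p = 0.0372). Fkbp5, a co-chaperone of the glucocorticoid receptor, rose by 0.85 ± 0.15 (adjusted p = 0.0134), and Hif3a, a hypoxia-inducible factor subunit, by 0.56 ± 0.11 (adjusted p = 0.0316). Fkbp5 gave 0.69 at its second probe set, while Hif3a gave only 0.08 and 0.15 at its others. Zbtb16, a zinc-finger transcription factor, rose by 1.26 ± 0.21 at the probe set with the higher signal (adjusted p = 0.0134) and differed by 0.04 at the other. Not all members moved: Per1, a clock gene, read 10.11 and 10.36 with MPTP and 10.33 and 10.15 in naive mice. Pdk4, a kinase that restrains glucose oxidation, differed by 1.06 ± 0.23 and missed the threshold (adjusted p = 0.0602). When naive array 2 was left out, 1 of the 17 was called, and 13 had an unadjusted p under 0.05.

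**Figure D2:**
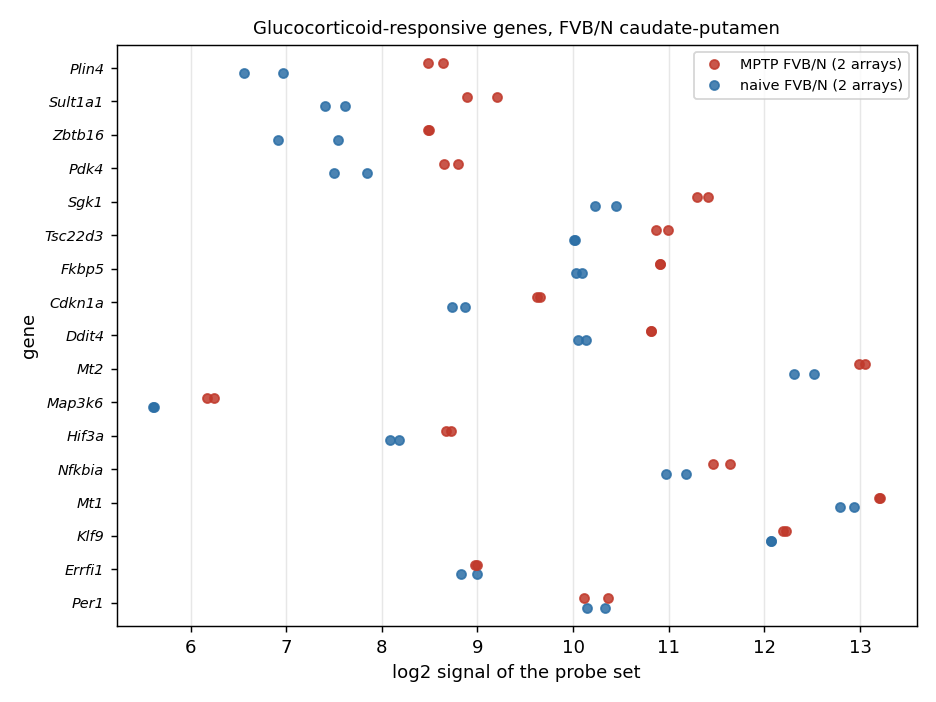
Log2 signal (x axis) of the 17 measured glucocorticoid-responsive genes (one per row, largest difference on top) in FVB/N caudate-putamen, each point 1 array; red, MPTP, blue, naive. In 15 rows both MPTP points lie above both naive points, and Per1 at the bottom overlaps.

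The promoter of Sgk1 is shown because it carries the 15-base palindrome to which the glucocorticoid receptor binds. The match (capitals, AGAACA and TGTTCT with 3 free bases between, searched on both strands) lay in 3 of 32851 RefSeq windows of 250 bases before to 50 after a gene start, 0.00913%. It begins 189 bases before the Sgk1 start, within the printed stretch at chr10:21993681-21993735 (GRCm38.p6, plus strand). No other list gene with a window held it, 16 of the 17 having one. A match describes the letters and not a bound site.
Sgk1: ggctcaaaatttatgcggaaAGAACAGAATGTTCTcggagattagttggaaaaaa

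Of 23 measured heat shock and chaperone genes, 4 were called, all higher, and 22 had a positive difference (median 0.18). Among all transcripts 0.199% were called higher, and the median was 0.01. Hspa1a, an inducible cytosolic Hsp70, read 8.37 and 8.55 against 7.30 and 6.51 and rose by 1.56 ± 0.24 (2.94-fold, adjusted p = 0.00541). Hspa1b, its near-identical neighbour, read 10.36 and 10.49 against 9.63 and 9.40 and rose by 0.91 ± 0.12 (adjusted p = 0.00144), with 0.97 and 0.93 at its other 2 probe sets. The probes of such close paralogs may bind both messages, so the split between them is uncertain. Hspb1, a small heat shock protein found in reactive astrocytes, rose by 1.00 ± 0.21 (adjusted p = 0.0469). The heat shock element (GAA, TTC and GAA, or TTC, GAA and TTC, with 2 free bases between neighbours, both strands) lay in 0.603% of the promoter windows. By gene it lay in 0.662% of genes with a window and in 4 of 20 list genes with one, none of them called here. Only exact matches within a window were counted, so the search cannot show that the called genes lack such an element. Leaving out naive array 2 left 1 of the 23 called, Hspa1b, while Hspb1 kept a call at its other called probe set (adjusted p = 0.0273 in that fit).

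The fourth called chaperone, Hspa5, is the Hsp70 of the endoplasmic reticulum and a marker of the unfolded protein response. It read 12.37 and 12.45 with MPTP and 12.02 and 11.86 in naive mice, a rise of 0.47 ± 0.09 (1.39-fold, adjusted p = 0.0338). A list of 26 endoplasmic reticulum stress genes was drawn up after this and other values were seen. Of these, 4 were called, all higher, counting Hspa5, and 19 of the 26 had MPTP arrays above naive arrays. Over all transcripts 0.199% were called higher and 21.6% had MPTP arrays above naive arrays. Xbp1, a transcription factor of the response, rose by 0.37 ± 0.07 (adjusted p = 0.0195), Manf, a secreted protein of the reticulum that protects dopamine neurons, by 0.47 ± 0.09 (adjusted p = 0.0352) and Sdf2l1, a co-chaperone, by 0.75 ± 0.15 (adjusted p = 0.0283). Ddit3, the pro-apoptotic factor CHOP, read 9.77 and 9.67 against 9.71 and 9.60 and did not separate the groups. Without naive array 2 none of the 26 was called by limma, though 10 had an unadjusted p under 0.05, and the difference of Xbp1, the smallest of the 4, was then 0.36.

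The promoter of Hspa5 is printed because it holds the endoplasmic reticulum stress element (capitals, CCAAT and CCACG with 9 free bases between, both strands), to which the factors of the unfolded protein response bind. The element lay in 0.119% of windows. By gene it lay in 0.137% of genes with a window and in 9 of 23 list genes with one, Hspa5 being the one of the 4 called. The stretch is chr2:34772005-34772063 (GRCm38.p6, plus strand), and the match begins 65 bases before the gene start.
Hspa5: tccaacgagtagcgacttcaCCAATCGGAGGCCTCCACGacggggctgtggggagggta

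A few microglial and complement genes were called, all higher, beside 0.199% of all transcripts called higher. C1qc, a chain of complement C1q made by microglia, read 9.80 and 9.43 with MPTP and 8.46 and 8.62 in naive mice and rose by 1.08 ± 0.21 (adjusted p = 0.0316). C1qa and C1qb differed by 0.64 ± 0.17 and 0.93 ± 0.24 and missed the threshold (adjusted p = 0.149 and 0.139). Tmem119 and Selplg, which mark resting microglia, each rose by 0.42 ± 0.08 (adjusted p = 0.0234 and 0.0282). Aif1, the microglial protein IBA1, read 8.38 and 8.24 against 8.42 and 8.35, a difference of -0.07 ± 0.13. Of 19 microglia markers 3 were called, all higher, with a median of 0.25, and the mean level over the list was 8.95 and 8.72 with MPTP against 8.52 and 8.55. Of 11 complement genes 2 were called, C1qc and C2, a protease of the classical pathway (0.64 ± 0.12, adjusted p = 0.0234). None of the 25 genes of activated and phagocytic microglia was called by limma, and 8 were higher at an unadjusted p under 0.05. Without naive array 2 none of the microglia or complement genes was called, with 7 and 4 at an unadjusted p under 0.05.

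Of 17 astrocyte markers, 14 had a positive and 3 a negative difference, with a median of 0.10. The MPTP arrays lay above the naive arrays for 10 and below them for 2. Above was the case for 21.6% of all transcripts. Gjb6, the gap junction protein connexin 30 of astrocytes, read 11.16 and 11.20 against 10.28 and 10.19 and rose by 0.94 ± 0.17 (adjusted p = 0.0198). It was the one call among 17 astrocyte markers and was not called without naive array 2. Gfap, the filament protein of reactive astrocytes, read 10.71 and 10.34 against 10.12 and 9.82 and did not pass the test (0.56 ± 0.22, adjusted p = 0.652). Aqp4, the water channel of astrocyte end-feet, had the lowest difference of the list, -0.38 ± 0.12 (adjusted p = 0.312). Of 25 reactive astrocyte genes 3 were called higher: Lcn2, Osmr and Hspb1. Lcn2 and Osmr are also on the acute-phase list, and Hspb1 on the heat shock list. Neutrophils also carry lipocalin-2, and none of 10 neutrophil markers was called by limma (2 at an unadjusted p under 0.05). S100a8, a calcium-binding protein of neutrophils, read 7.36 and 6.18 against 5.13 and 4.91 (adjusted p = 0.262), and Mpo, myeloperoxidase, read 5.66 and 5.81 against 5.63 and 5.88. The mean level of the 10 was 6.47 and 6.30 with MPTP, against 5.95 and 6.00. Their part in the Lcn2 rise was not tested.

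Further rises fell outside these groups. Xdh, xanthine dehydrogenase of purine breakdown, rose by 1.00 ± 0.13 (7.21 and 7.24 against 6.13 and 6.32, adjusted p = 0.00144). Gpx3, a secreted glutathione peroxidase, rose by 0.67 ± 0.14 (adjusted p = 0.0371) and was the one call among 21 antioxidant and metallothionein genes at the probe sets that stand for them. Srxn1, sulfiredoxin, which restores oxidised peroxiredoxins, missed the threshold there (0.39 ± 0.12, adjusted p = 0.313) but rose by 0.45 ± 0.06 at another probe set (10.17 and 10.23 against 9.75 and 9.75, adjusted p = 0.00121), which kept its call without naive array 2. H2-K1, a class I antigen-presenting protein, rose by 0.42 ± 0.08 (adjusted p = 0.0372) but differed by 0.12, 0.14 and 0.01 at its other 3 probe sets. It was the one call among 24 interferon response and antigen presentation genes. Klf15, a transcription factor of metabolism that glucocorticoid induces, rose by 0.73 (adjusted p = 0.00527), and Mertk, a phagocytic receptor, by 0.75 (adjusted p = 0.0198).

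The transmitter systems of the striatum showed no called change. None of 15 striatal projection neuron markers, 13 dopamine genes, 19 cholinergic genes or 13 GABAergic interneuron markers was called by limma. At an unadjusted p under 0.05 there were 1 lower projection neuron marker, 1 higher and 1 lower dopamine gene, 3 higher cholinergic genes and 1 lower interneuron marker. Th, the rate-limiting enzyme of dopamine synthesis, read 7.92 and 7.99 with MPTP and 7.68 and 7.71 in naive mice, a difference of 0.26 ± 0.61. That standard error is wide beside these readings because it is pooled over all 29 arrays, so the lack of a call says little. Slc6a3, the dopamine transporter, read 5.87 and 5.73 against 5.85 and 5.84. Drd2, the D2 receptor, differed by -0.23 ± 0.30, Tac1, which encodes substance P, by 0.01 ± 0.21 and Pdyn, which encodes dynorphin, by 0.31 ± 0.18. Ache, mouse acetylcholinesterase, read 9.96 and 10.23 against 9.65 and 9.64 (0.45 ± 0.14, adjusted p = 0.294), and Bche, butyrylcholinesterase, read 5.49 and 5.37 against 5.47 and 5.43. None of the 39 mitochondrial complex I genes and none of 48 genes of the other respiratory complexes was called by limma, and none had an unadjusted p under 0.05. Their medians were -0.04 and -0.01. None of 22 immediate early genes was called (median -0.24, 1 lower at an unadjusted p under 0.05).

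The falls included neuronal genes of the cerebral cortex. Neurod6, a transcription factor of cortical projection neurons, read 6.82 and 5.12 with MPTP and 8.37 and 7.61 in naive mice and fell by 2.02 ± 0.39 (4.06-fold lower, adjusted p = 0.0257). Tbr1, a transcription factor of deep-layer cortical neurons, read 7.87 and 7.41 against 8.91 and 8.46 and fell by 1.04 ± 0.22 (adjusted p = 0.0466). Mef2c, a transcription factor of excitatory neurons, fell by 0.49 ± 0.07 (adjusted p = 0.00293). Cplx3, a complexin of deep cortical layers, fell by 0.85 ± 0.15 (adjusted p = 0.0175), and Myl4, a myosin light chain, by 1.62 ± 0.30 (adjusted p = 0.0226) with 0.08 at its second probe set. Of 15 cortical glutamatergic neuron markers 3 were called, all lower, and the median was -0.41. Among all transcripts 0.0663% were called lower, and the median was 0.01. The list's mean level was 8.53 and 8.23 on the MPTP arrays and 9.02 and 8.74 on the naive arrays. Without naive array 2 the 3 called were Neurod6, Mef2c and Cck, a neuropeptide gene, and without naive array 1 or MPTP array 2 none was. Such markers can enter a striatal dissection with adjoining cortex, and the part this had in the falls was not tested. The 11 choroid plexus and ependymal markers, of which none was called (1 lower at an unadjusted p under 0.05), averaged 7.70 and 6.32 with MPTP against 7.06 and 7.91, so the arrays of a group differed more than the groups. Their median difference was -0.55, and it was -1.26 with 3 lower calls without MPTP array 1, but 0.17 without MPTP array 2, -1.12 without naive array 1 and 0.02 without naive array 2, with no calls in these 3 fits. Ttr, transthyretin of the choroid plexus, read 13.80 and 10.72 against 13.50 and 13.92.

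Cholesterol synthesis genes gave lower calls. Msmo1, a sterol oxidase, read 10.10 and 10.04 against 10.58 and 10.64 and fell by 0.54 ± 0.10 (adjusted p = 0.0202). Hmgcs1, which makes the substrate of HMG-CoA reductase, read 11.32 and 11.24 against 11.90 and 11.70 and fell by 0.52 ± 0.11 (adjusted p = 0.0426), with -0.54 to -0.61 at its other 3 probe sets. Sqle and Cyp51, later enzymes of the pathway, differed by -0.36 ± 0.10 and -0.32 ± 0.10 and missed the threshold. A list of 19 measured genes of the pathway, drawn up after these values were seen, had 2 calls, both lower, and a median of -0.15. Among all transcripts 0.0663% were called lower. Without naive array 2 neither was called at these probe sets, where 7 of the 19 had an unadjusted p under 0.05, and another Hmgcs1 probe set kept its call (-0.61 in the fit of all arrays, adjusted p = 0.0163 without that array). The remaining falls were Serpinb1a, a protease inhibitor (-0.96 ± 0.19), Gask1b, a Golgi protein (-0.76 ± 0.14), Cav2, caveolin-2 (-0.58 ± 0.11, with 0.14 at its second probe set), Armcx5 (-0.43 ± 0.08) and Msra, which repairs oxidised methionine (-0.29 ± 0.06).

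Markers of several further cell types were not called. Of 14 oligodendrocyte and myelin genes none was called by limma, 5 were lower at an unadjusted p under 0.05, and the median was -0.16. Their mean level was 10.55 and 10.40 on the MPTP arrays, against 10.88 and 10.51 on the naive arrays, and the groups overlapped. None of 21 endothelial and mural cell markers, 15 meningeal and fibroblast markers, 8 monocyte and border macrophage markers, 8 T cell markers or 17 cell cycle genes was called by limma. At an unadjusted p under 0.05 there were 2 higher and 1 lower endothelial and mural markers and 0 in the other 4 lists. Slc2a1, the glucose transporter GLUT1 of brain endothelium, differed by 0.48 ± 0.16 at the probe set counted (adjusted p = 0.392) and rose by 0.69 ± 0.11 at another (10.02 and 9.98 against 9.22 and 9.40, adjusted p = 0.00593), and with the mean of probe sets 1 endothelial marker was called.

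The FVB/N response was then set beside that of TgS caudate-putamen, with a test of the difference. TgS had 318 called transcripts (1.41%), 0.743% higher and 0.663% lower, and the difference between the responses was called for 136 (0.601%), 74 higher (0.327%) and 62 lower (0.274%) in FVB/N. Lcn2 responded in both: 8.75 and 9.81 on TgS MPTP arrays, against 5.11 and 4.81 on TgS naive arrays, a rise of 4.32, and the difference of 0.18 was not called. Of the 45 FVB/N rises, 39 had the same sign in TgS and 14 were called there, with 1, Gpx3, called the opposite way. Peg10, an imprinted gene derived from a retrotransposon, rose by 0.74 in FVB/N and differed by -0.28 in TgS, and that difference of 1.02 was called (adjusted p = 0.00116). Of the 15 falls, 7 had the same sign in TgS, 2 were called there and 6 were called the opposite way. Neurod6 rose in TgS by 2.07 (7.39 and 7.49 against 5.13 and 5.61), and the difference between the responses was -4.09 (adjusted p = 0.00062). The cortical list as a whole had a median of 0.40 in TgS, and its mean level was 8.83 and 8.92 on TgS MPTP arrays and 8.22 and 8.36 on TgS naive arrays. Of its 15 genes 7 differed between the responses. The 8 hypothalamic peptide genes had a median of 0.58 in FVB/N and -1.05 in TgS, where the mean level was 7.68 and 7.68 with MPTP against 8.70 and 9.24. In FVB/N it was 8.44 and 8.62 against 7.83 and 8.20. The part of these regional levels in the differences was not tested. Hspa1a, called in FVB/N, had 0.26 in TgS, and the difference of 1.30 was not called (adjusted p = 0.124).

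**Figure D3:**
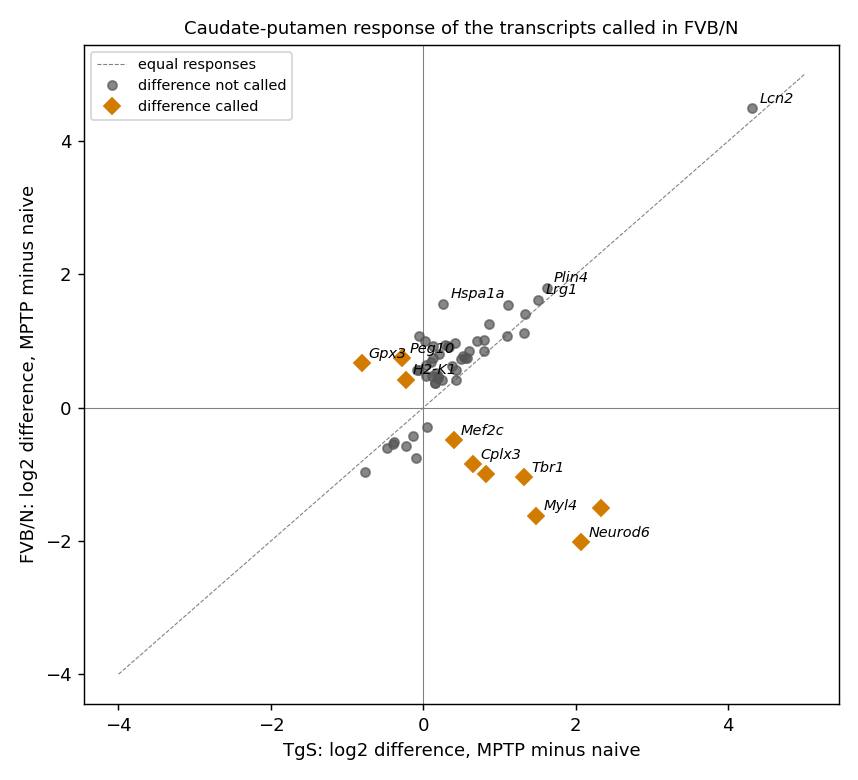
Log2 difference of MPTP minus naive in FVB/N caudate-putamen (y axis) against that in TgS caudate-putamen (x axis) for the 60 transcripts called in FVB/N, each point 1 transcript; orange diamonds mark the 10 whose difference between the responses was called. Lcn2 lies near the dashed line of equal responses (4.50 and 4.32), and the falls with cortical genes lie in the lower right.

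**Figure D4:**
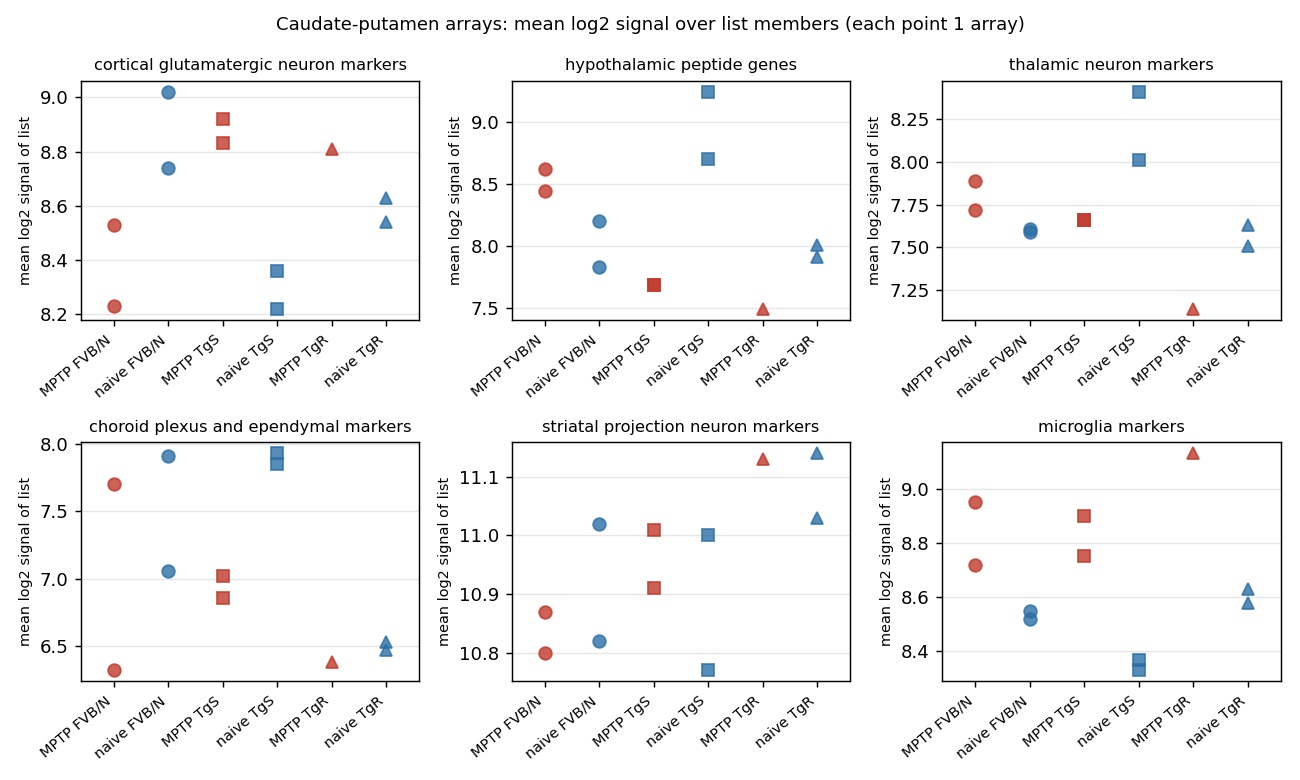
Mean log2 signal (y axis, a separate range in each panel) over the members of 6 marker lists in the 11 caudate-putamen arrays, by strain with MPTP (red) left of naive (blue), each point 1 array. The cortical list is lower with MPTP in FVB/N and higher with MPTP in TgS, and the choroid plexus list spreads widely within FVB/N groups.

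In TgR caudate-putamen, where 1 MPTP array allows only a pooled-spread estimate, Lcn2 differed by 1.55, and the median difference of the 45 FVB/N rises was 0.09. In FVB/N prefrontal cortex Lcn2 rose by 4.84, and the median of the 45 was 0.40. The regional test called 1487 transcripts (6.57%), but the fit without the term for naive prefrontal replicates 3 and 4 called none, with 1255 at an unadjusted p under 0.05, and this comparison rests on how the naive prefrontal arrays are grouped. On the 4 FVB/N caudate-putamen arrays, Y-linked Eif2s3y read 8.77 to 9.13 and Kdm5d 7.54 to 7.71. The 4 measured sex-linked genes had a median difference of -0.07 in FVB/N caudate-putamen but 2.96 in FVB/N prefrontal cortex. The part of sex in the prefrontal differences was not tested.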

How the data were processed

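Total RNA of 29 mouse brain samples was measured on Affymetrix arrays. The deposited table holds the authors' log2 signals per probe set, for which the submitters' processing notes list RMA, Affymetrix Expression Console and Affymetrix Power Tools, with no version or setting. No raw scans or detection calls were used, and each group compared has 1 to 4 arrays, which limits the precision. Of 22690 probe sets, 64 controls were left out. Of the 22626 tested, 20380 carry 1 gene symbol, 691 several and 1555 none, and none of the latter 2 kinds was named. A gene is represented by the probe set with the highest mean over all arrays (12393 genes). Drd1, Slc18a2 and Chat have no single-symbol probe set used here.

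Groups came from titles, source names and treatment entries. One limma model (limma 3.58.1, R 4.3.3) on the log2 values as deposited held a mean for each of 12 groups and a term for naive prefrontal replicates 3 and 4, set apart by the spelling of their source labels, with 16 residual degrees of freedom. The tests were two-sided and moderated, with Benjamini-Hochberg adjustment over the 22626 transcripts, and adjusted p under 0.05 is called. Promoter windows are RefSeq, build GRCm38.p6.

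The members and gene lists were chosen with earlier results of these data known. The named genes are the 15 largest called rises and the called falls (12) with non-overlapping arrays, from each list at most 4 members with the smallest p, a fixed set of dopamine, striatal, cholinesterase and glial genes, and the 5 smallest p of each test of a difference. The genes printed were picked from these after values were seen. Genes outside that rule, among them Srxn1, Slc2a1, Klf15, Mertk, Peg10, Per1, Mpo, Ddit3, Sqle and Cyp51, and the lists of cholesterol synthesis and endoplasmic reticulum stress genes, were also chosen after values were seen. The alternatives were no set term, a replicate block, leaving out naive prefrontal replicates 1 and 2, quantile normalization, leaving out the 0.25 of transcripts with the lowest mean, a trended and robust variance, caudate-putamen alone, the 4 arrays alone, the mean of probe sets, and leaving out each array.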

Additional observations from a re-analysis of the deposited data

Results flagged for a closer look

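The test of the difference between the FVB/N and the TgS response to MPTP in caudate-putamen passed for 21 of the genes named here. Values are the FVB/N response minus the TgS response on the log2 scale. Among genes of cortical neurons, Neurod6 differed by -4.09, Tbr1 by -2.37, Cck by -2.10, Nptx1 by -1.51 and Mef2c by -0.89. Myl4 differed by -3.09, Cplx3 by -1.49 and Stx1a by -1.42. Among peptide genes and thalamic markers, Oxt differed by 2.39, Slc17a6 by 2.00, Gal by 1.74 and Gbx2 by 1.39. Calcr, the calcitonin receptor, differed by 2.06, Agt, which encodes angiotensinogen, by 1.65, Fmod, a matrix protein, by 1.34 and Ngfr, a neurotrophin receptor, by 1.20. Gpx3 differed by 1.48, Ache by 1.11, Peg10 by 1.02, H2-D1 by 0.68 and H2-K1 by 0.64. Within FVB/N, 8 of the 21 passed the test (Neurod6, Tbr1, Mef2c, Myl4, Cplx3, Gpx3, Peg10 and H2-K1) and the other 13 did not.

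The test of the difference between the caudate-putamen and the prefrontal response of FVB/N passed most strongly for Eif2s3y (-5.28), Kdm5d (-3.82), Rufy2 (-1.74), Ttc14 (-1.36) and Crnkl1 (-1.07), chosen by their smallest p. In caudate-putamen alone these 5 differed by between -0.14 and -0.05 after MPTP. The first and second are Y-linked. In FVB/N prefrontal cortex the 4 measured sex-linked genes had a median difference of 2.96, MPTP minus naive. The part of sex in this regional difference was not tested.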

How the results depend on the processing

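The FVB/N response had 60 calls with the set term, 5 without it, 153 without naive prefrontal replicates 1 and 2, 24 in the 4 arrays alone and 1 to 41 when an array was left out. The difference from TgS had 136 calls, 54 with no set term, 322 without those 6 prefrontal arrays and 50 to 159 with an array left out. The difference from prefrontal cortex had 1487 calls, 0 with no set term (1255 at an unadjusted p under 0.05), 315 without those 6 arrays and 323 to 1604 with an array left out. List members called numbered 26, 13 in the 4 arrays alone, 14 in caudate-putamen alone, 4 with no set term and 1 to 12 with an array left out. The other fits kept these counts within 1.5 times. The cause of these changes was not tested. In FVB/N caudate-putamen, MPTP and naive arrays of the same replicate number did not deviate together (r = -0.1101 over transcripts). Other groups were not checked, and whether the numbers mark a batch was not tested. The replicate block gave 50 calls, 45 of them among the 60, and the block with crossed numbers 56. Of the 41 called genes named here, 41 kept their call without the 6 prefrontal arrays. With the trended and robust variance 40 did, with quantile normalization 39 and under the replicate block 30. Fewer kept it in caudate-putamen alone (21), in the 4 arrays alone (11) and with no set term (5). None changed direction in any fit.

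Sign changes were found for genes that were not called. Their differences were near 0, except for Ttr at -1.45 ± 0.56. With an array left out, Bche ranged from -0.08 to 0.04, Fmod from -0.01 to 0.22, Mpo from -0.14 to 0.10, Penk from -0.16 to 0.03, Per1 from -0.13 to 0.12, Ppp1r1b from -0.04 to 0.05, Slc6a3 from -0.11 to 0.03, Tac1 from -0.05 to 0.06 and Ttr from -2.99 to 0.09. With the mean of probe sets Fmod was -0.01, and with quantile normalization Per1 was 0.01 and Ppp1r1b -0.01. Leaving out the transcripts with the lowest signal gave 72 calls in place of 60. Each FVB/N caudate-putamen group has 2 arrays, which limits the precision, and detection was not assessed.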
